A study of Mus musculus with 2 samples.

Results

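Within the noncoding gene Meg3 and between it and the protein-coding gene Rtl1, mouse chromosome 12 carries microRNA genes at the proximal end of the imprinted Dlk1-Dio3 domain. The 8 of them described here are Mir770, Mir673, Mir493, Mir337, Mir540, Mir665, Mir3070a and Mir3070b. They were taken by name and position from 2202 microRNA genes in the deposited tables, and they are all of its plus-strand genes in a window that runs from within Meg3 to the near end of Rtl1. Levels were measured by sequencing RNA below 30 nt from total RNA of left cerebral cortex, taken from B6CASTF1/J females (an F1 hybrid strain) at an age of 25 days. No treatment or engineered allele is given for the mice. The single group holds 2 biological replicates whose labels number the animals differently but share 1 donor record, so values between them measure the spread of these 2 libraries, which may be technical. The cortex is a mixture of neurons, glia and vascular cells, and fewer cells of a type cannot be told apart from less RNA per cell.

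A microRNA gene is transcribed into a hairpin, and a duplex is cut from its stem, from which the 5p or the 3p strand is loaded into an Argonaute protein. Bases 2 to 8 of the loaded strand, the seed, do most of the pairing with target mRNAs. Meg3 is transcribed from the maternally inherited chromosome, as are the microRNAs downstream of it, while Rtl1, a gene derived from a retrotransposon, is expressed from the paternal chromosome on the opposite strand. The microRNAs of this domain are abundant in brain. The deposited counts pool the 5p and 3p arms, so each level below is that of a gene.

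The mature sequences of the 6 single-copy genes are shown because they set which targets each gene could pair with, and no seed is shared among these 6 genes. RefSeq (GRCm38.p6) lists 2 arms for each of the 8 genes, 15 different sequences with 14 different seeds, between 19 and 26 nt long. All 8 hairpins have the same bounds and bases there as in GENCODE M21. Capitals mark the seed, and sequences run 5′ to 3′.
miR-770-5p: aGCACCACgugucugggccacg
miR-770-3p: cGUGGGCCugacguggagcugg
miR-673-5p: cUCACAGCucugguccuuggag
miR-673-3p: uCCGGGGCugaguucugugcacc
miR-493-5p: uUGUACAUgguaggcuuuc
miR-493-3p: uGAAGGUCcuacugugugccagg
miR-337-5p: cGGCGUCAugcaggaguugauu
miR-337-3p: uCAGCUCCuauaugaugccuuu
miR-540-5p: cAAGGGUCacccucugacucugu
miR-540-3p: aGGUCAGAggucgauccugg
miR-665-5p: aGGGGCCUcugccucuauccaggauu
miR-665-3p: aCCAGGAGgcugaggucccu

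Among the 1058 microRNA genes with a mature sequence in the RefSeq table, which lists fewer genes than the deposited tables, 2 outside the locus carry a seed of this group, and both gave few counts. Mir6985 on chromosome 19 shares the seed of miR-673-5p and had 24 counts in replicate 1 and 16 in replicate 2, against 2116 and 3059 for Mir673. Mir6915 on chromosome 10 shares the seed of miR-540-3p and had 38 and 18 counts, against 3871 and 4119 for Mir540. Beyond the seed the sequences differ, as the shared seed in capitals shows.
miR-6985-3p: cUCACAGCcaccuccucacag
miR-6915-5p: aGGUCAGAgcagauggagguucgu

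Mir3070a and Mir3070b are near copies of each other, and their hairpins are shown because this limits what their counts can hold. Here capitals mark the mature arms. The hairpins are 89 nt long, agree at 84 positions (94.4%) and share their first 43 bases, which hold the whole 5p arm, so miR-3070-5p is the same sequence at both loci.
Mir3070a: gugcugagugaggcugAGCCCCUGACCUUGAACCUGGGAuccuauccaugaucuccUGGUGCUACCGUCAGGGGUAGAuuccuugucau
Mir3070b: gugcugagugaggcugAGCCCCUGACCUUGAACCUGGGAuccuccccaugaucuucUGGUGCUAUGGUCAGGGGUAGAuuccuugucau
From the first base of each hairpin, Mir3070a differs from Mir3070b by A44C, U45C, C55U, C65U and C66G (Mir3070a base first). Counted from the 5′ end of the 3p arm, the last pair is C9U and C10G, outside the seed, which both 3p arms share. Of 68 places that a 22-nt read can take on the Mir3070a hairpin, 24 (35.3%) read the same in Mir3070b. The deposited tables set reads that map to several loci apart from the gene counts, and by that layout a read of miR-3070-5p is counted for neither gene. No other member shares 18 or more bases with any other annotated microRNA hairpin.

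Mir337 overlaps a microRNA gene on the other strand, Mir3544, and both hairpins are shown because this overlap decides in which count column Mir337 appears. The 61 nt of Mir3544 are the exact reverse complement of positions 25 to 85 of the 97-nt Mir337 hairpin. Capitals again mark the mature arms.
Mir337: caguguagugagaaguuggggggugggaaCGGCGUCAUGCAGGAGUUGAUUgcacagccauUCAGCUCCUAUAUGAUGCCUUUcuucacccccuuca
Mir3544: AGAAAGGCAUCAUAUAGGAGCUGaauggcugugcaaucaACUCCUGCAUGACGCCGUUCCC

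**Figure D1:**
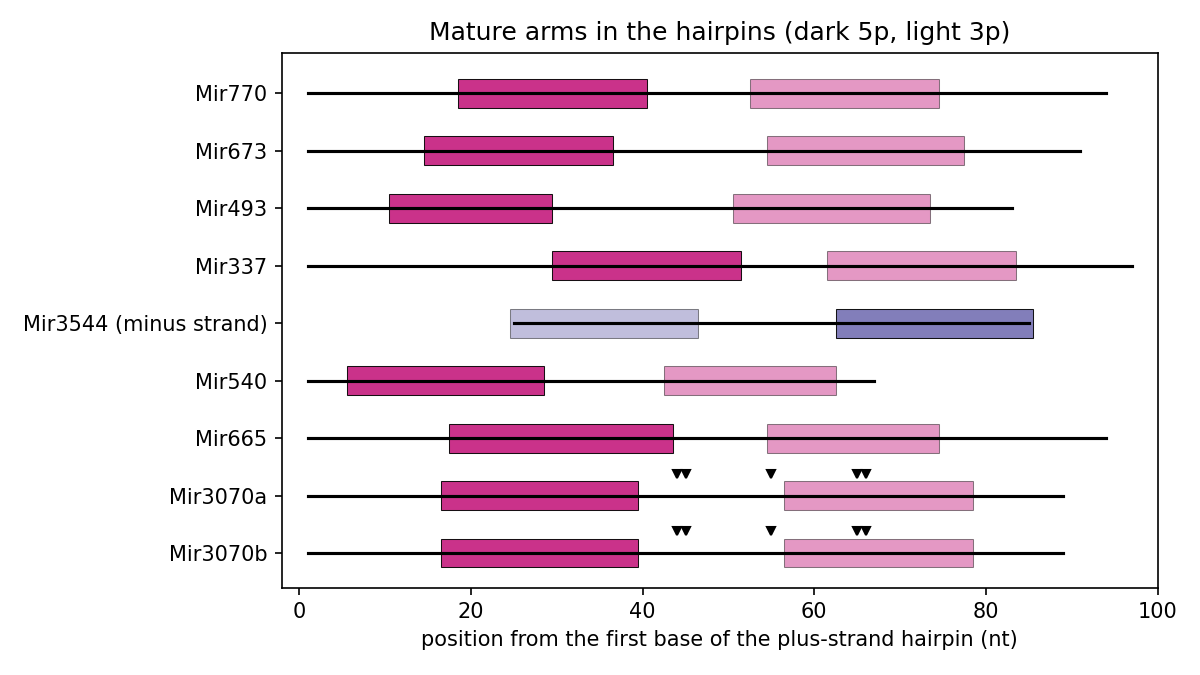
Position of the mature arms (dark boxes 5p, light boxes 3p) along each hairpin, in nt from the first base of the plus-strand hairpin, for the 8 genes in pink and for the minus-strand gene Mir3544 in violet, placed on the Mir337 scale. Mir3544 covers positions 25 to 85 of Mir337, and triangles mark the 5 positions where Mir3070a and Mir3070b differ, of which 2 lie in the 3p arm and none in the 5p arm.

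On mm10 (GENCODE M21) all 8 genes lie on the plus strand of chromosome 12. Mir770 (ENSMUSG00000076451.1, 109563692 to 109563785) is the one member inside Meg3. It lies in exon 5 of the transcript Meg3-209, which runs from 109558640 to 109571726, and in introns of Meg3-207, Meg3-208 and Meg3-211. Mir673 (109571990 to 109572080) starts 263 bases past the annotated end of Meg3, and Mir493 (109580233 to 109580315) follows 8152 bases after it. Mir337 (109585789 to 109585885), Mir540 (109586080 to 109586146) and Mir665 (109586314 to 109586407) stand close together, with gaps of 194 and 167 bases. Mir3070a (109587943 to 109588031) and Mir3070b (109588592 to 109588680) are 560 bases apart, and Mir3070b ends 512 bases before the bound of Rtl1 at 109589193. On their own strand, 7 of the 8 genes overlap no annotated GENCODE gene. The RefSeq gene model of Rtl1 is longer than that of GENCODE, from 109564900 to 109604418, and spans the same 7.

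The libraries held 3017058 own-strand microRNA gene counts in replicate 1 and 3209361 in replicate 2, which were 35.5% and 34.5% of their reads, while 40.3% and 39.0% of reads were placed at several loci. Levels are in CPM, counts scaled to a common library size. The limit that a count of 0 allows, set at 3 counts, was 0.994 CPM for replicate 1 and 0.935 CPM for replicate 2. The tissue label was set beside marker microRNAs. The neuronal markers Mir139, Mir132 and Mir128-1 led a list that summed to 202828 and 189625 CPM, although Mir124a-1, Mir124a-2 and Mir124a-3, which have several copies, held 0 to 9 counts per library. Markers of liver, striated muscle and red blood cells each summed to between 41.8 and 75.4 CPM, and Mir375, a marker of pancreas and pituitary, was at 101 and 168 CPM.

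All 8 genes reached 10 counts in each library, the minimum for calling a gene detected, which 17.9% of all 2202 genes did. They spanned levels from 18.5 to 23637 CPM, and Mir770 dominated them. Summed, they held 2.98% of microRNA gene counts in replicate 1 (exact 95% binomial interval 2.96 to 3.00) and 2.75% in replicate 2 (2.73 to 2.77), a mean of 2.86% ± 0.162 (SD, n = 2). Intervals cover counting error within each library only. They may be too narrow even for that, because reads amplified without molecular identifiers are not independent molecules. Without Mir770 the other 7 held 0.473% and 0.523%. The median of the 8 was 518 CPM, while the median over all genes was 0.

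Mir770, the gene inside Meg3, had 75529 counts in replicate 1 and 71377 in replicate 2, which are 25034 and 22240 CPM. Its mean of 23637 ± 1975 CPM (SD, n = 2) ranked 10th of all genes, and it supplied 82.5% ± 2.23 of the counts of the 8 genes. The rank is by gene counts, which leave out reads placed at several loci (40.3% of reads in replicate 1 and 39.0% in replicate 2). Genes with several copies can therefore rank lower than their full level would place them. The next level, that of Mir337, was 10.5-fold lower in replicate 1 and 8.43-fold lower in replicate 2. Mir770 therefore stood apart from the rest of the interval in both libraries.

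Within the close trio before the Mir3070 copies, levels stepped down from one gene to the next. Mir337 had 7207 and 8464 counts, or 2389 and 2637 CPM (mean 2513 ± 176, SD, n = 2). Mir540, 194 bases downstream, had 3871 and 4119 counts, or 1283.0 and 1283.4 CPM, nearly the same level in both libraries. Mir665, which follows after 167 bases more, had 622 and 684 counts, or 206 and 213 CPM (mean 210 ± 4.93). Mir337 was 11.6-fold higher than Mir665 in replicate 1 and 12.4-fold higher in replicate 2. The libraries did not overlap between any of the 3 genes, although the trio lies within one short stretch of the chromosome.

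The isolated genes Mir673 and Mir493, between Meg3 and the trio, were lower than Mir540. Mir673 had 2116 and 3059 counts, or 701 and 953 CPM (mean 827 ± 178, SD, n = 2), and was higher in replicate 2. Mir493 had 334 and 285 counts, or 111 and 88.8 CPM (mean 99.8 ± 15.5), and was higher in replicate 1. These neighbours along the chromosome thus moved in opposite directions between the libraries.

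The Mir3070 copies next to Rtl1 were the lowest of the group. Mir3070b had 81 and 111 counts, or 26.8 and 34.6 CPM (mean 30.7 ± 5.47, SD, n = 2). Mir3070a had 40 and 76 counts, or 13.3 and 23.7 CPM (mean 18.5 ± 7.37). Mir3070b was 2.03-fold higher than Mir3070a in replicate 1 and 1.46-fold higher in replicate 2, and even the lower library of Mir3070b lay above the higher library of Mir3070a. By counting error the order is less firm. In replicate 1 the 95% intervals were apart, at 21.3 to 33.4 CPM for Mir3070b and 9.47 to 18.1 CPM for Mir3070a. In replicate 2 they overlapped, at 28.5 to 41.7 CPM for Mir3070b and 18.7 to 29.6 CPM for Mir3070a. Across libraries, the interval of Mir3070b in replicate 1 also overlapped that of Mir3070a in replicate 2. Both values leave out reads of the identical 5p arm, so they are not the full levels of these genes.

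**Figure D2:**
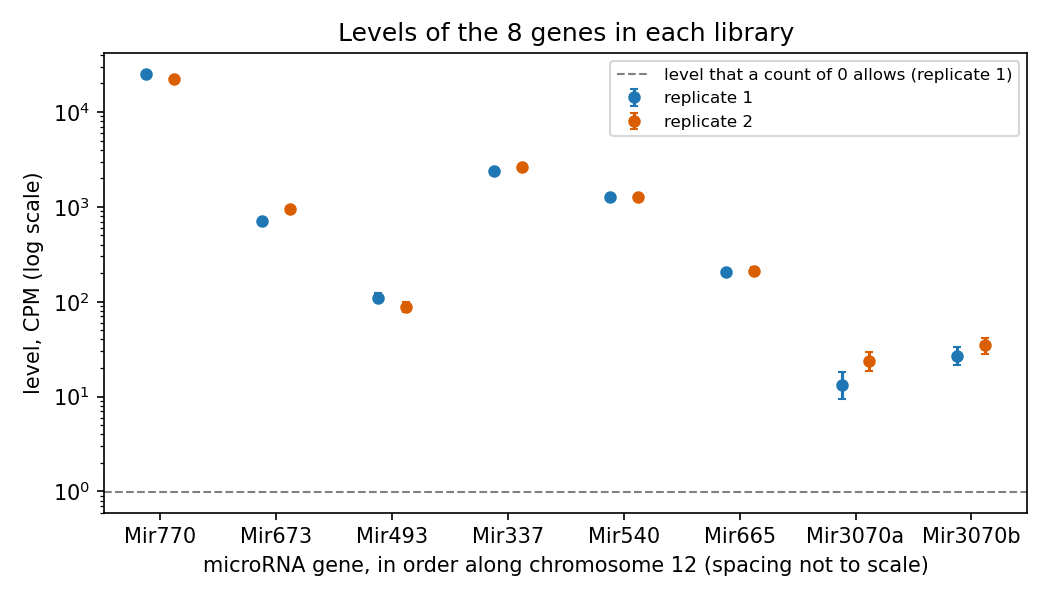
Level in CPM (log scale) of each of the 8 genes in replicates 1 and 2, in chromosome order, with exact 95% binomial intervals of the counts (hidden behind the points for the abundant genes) and the level that a count of 0 allows in replicate 1. Mir770 sits at 25034 and 22240 CPM, a further peak stands at Mir337, and Mir3070a and Mir3070b lie lowest, between 13.3 and 34.6 CPM.

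From highest to lowest the order was Mir770, Mir337, Mir540, Mir673, Mir665, Mir493, Mir3070b and Mir3070a, and it was the same in both libraries. In all 7 pairs of neighbours in this order the libraries did not overlap. The 2 values on each side come from the same 2 libraries. Even if they were independent samples, a two-sided exact permutation test could give no p below 0.333. Hairpin lengths ran from 67 nt (Mir540) to 97 nt (Mir337), and per 100 nt of hairpin the order was unchanged, with 25146 CPM per 100 nt for Mir770 and 20.8 CPM per 100 nt for Mir3070a at the ends. The closest neighbours were Mir540 and Mir673, which stood 1.83-fold apart in replicate 1 and 1.35-fold apart in replicate 2.

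Predicted folding set the same genes at the ends of the range. The hairpin of Mir770 had the lowest minimum free energy per base (-0.619 kcal/mol per nt) and those of Mir3070b (-0.390) and Mir3070a (-0.366) the highest. Mir540 was at -0.610, Mir493 at -0.542, Mir337 at -0.509, Mir665 at -0.470 and Mir673 at -0.465. The median of the 8 was -0.490, against -0.435 over the 395 detected genes and -0.369 over all 2202 hairpins. Across the 8 genes, level and stronger folding ranked together with a Spearman's rho of 0.79, a description over 8 hairpins that share 1 locus and the same libraries. Of 4 such relations computed, level ranked with position along the chromosome at -0.71, with hairpin length at 0.47 and with GC content at 0.28. The lowest levels, those of Mir3070a and Mir3070b, leave out reads of the arm that is identical in both genes. These hairpins are also near copies, so their folding values are not independent of each other. Both limits bear on the low end of the range and on all 4 relations. Whether the relations hold without the copies was not tested. Mir770 had the highest GC content (70.2%), while the other members lay between 52.6% (Mir337) and 61.5% (Mir673), above the median of all hairpins (50.8%).

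Set in the whole domain, the 8 genes supplied a minor part of its counts. Meg3 starts at 109541001 and Dio3, the far end of the domain, stops at 110281097. Between these points 59 microRNA genes lie on the plus strand, and the 8 held 16.7% ± 0.252 (SD, n = 2) of their counts. The 6 genes within the bounds of Rtl1 held 41.4% ± 1.37 and the 44 genes beyond Rtl1 held 41.9% ± 1.11. All 8 were detected, as were 5 of 6 genes within Rtl1 and 37 of 44 beyond it. Median levels were 518 CPM for the 8, 1942 CPM within Rtl1 and 378 CPM beyond it.

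Levels just outside the interval differed from those at its ends. Upstream of Mir770, Mir1906-1 within Meg3 had 0 counts in both libraries. Its mature sequence is also listed at Mir1906-2 on chromosome X, so its reads could fall in the class placed at several loci. The next plus-strand microRNA gene before it, Mir345, lies outside the domain and was at 64.5 ± 15.8 CPM. Past Mir3070b, the first genes opposite Rtl1 were Mir431 at 1856 ± 204 CPM and Mir433 at 21354 ± 801 CPM. Opposite Rtl1 the highest gene was Mir127 at 45713 ± 1807 CPM, and the lowest, Mir432, had 0 counts. Mir770, at 23637 CPM, was thus the only member near the level of Mir433, and it lay below Mir127.

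**Figure D3:**
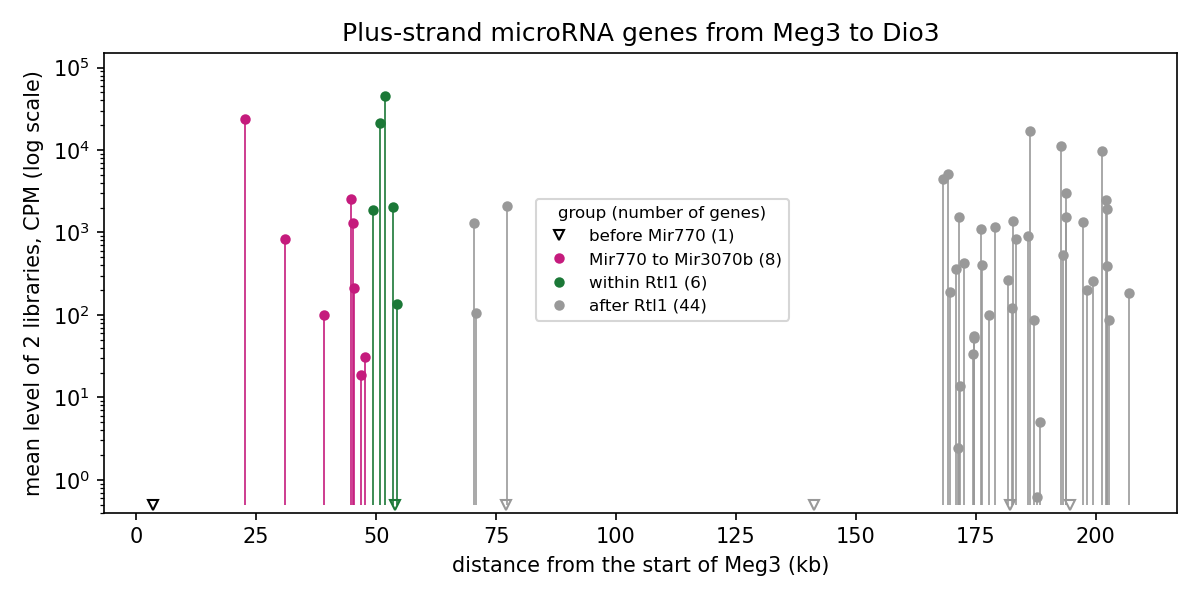
Mean level of 2 libraries in CPM (log scale) of the 59 plus-strand microRNA genes against distance from the start of Meg3 in kb, coloured by group, with open triangles at the foot of the plot for genes with 0 counts in both libraries. The 8 genes (pink) lie between 22.7 and 47.6 kb, with Mir770 highest and the levels next to Rtl1 lowest, and the genes within Rtl1 (green) begin just beyond them.

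Genes with levels most like each member were found within the domain and outside it. Likeness was the Euclidean distance of log2(CPM + 1) over the 2 libraries, and the 2 nearest genes were taken for each member, 16 in all. Of these, 4 belonged to the same domain, which holds 50 of the 395 detected genes on its plus strand. Mir770 was nearest to Mir23b (distance 0.14) and Mir433 (0.27), Mir673 to Mir300 (0.14) and Mir872 (0.14), and Mir493 to Mir495 (0.094) and Mir3547 (0.14). Mir337 was nearest to Mir676 (0.13) and Mir181d (0.18), and Mir540 to Mir185 (0.19) and Mir666 (0.34). Mir665 was nearest to Mir20a (0.11) and Mir664 (0.20), Mir3070a to Mir1941 (0.15) and Mir7066 (0.19), and Mir3070b to Mir206 (0.021) and Mir33 (0.13). With 2 libraries of 1 tissue, this measure reflects level more than pattern.

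Strand separated Mir337 from the other members. In the column that ignores strand, Mir337 had 0 counts in both libraries, while its own-strand counts were 7207 and 8464. The other 7 genes had identical counts in both columns. Without strand, reads over Mir337 and Mir3544 belong to both genes, and the strand-blind column gives 198617 and 215418 reads as ambiguous. The own-strand counts of Mir337 amount in size to 3.63% and 3.93% of those. On the minus strand, Mir3544 itself had 1 count in replicate 1 and 0 in replicate 2. Over all 8 genes the opposite-strand column held 1 count, at Mir337 in replicate 1, so the counted reads of the interval came from the plus strand.

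The libraries differed little at these genes, although most differences exceeded counting noise. Each gene was compared by a two-sided exact binomial test given library sizes scaled by TMM (the trimmed mean of M-values), with Benjamini-Hochberg adjustment over the 496 genes with at least 10 counts in total. The test compares 2 libraries, not conditions. It called 6 of the 8 genes, where it called 56.5% of all genes tested. Of the 6, 5 were higher in replicate 1 (30.6% of all genes tested were so called) and 1 was higher in replicate 2 (25.8%). None of the 8 was over 2-fold apart, where 23.6% of all genes tested were. The median absolute log2 ratio was 0.22 for the 8, 0.31 within Rtl1, 0.50 beyond Rtl1 and 0.53 over all genes tested, a set that holds many genes of few counts.

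Compared with library totals, TMM shifted every log2 ratio by -0.23, and the directions below refer to the shifted values. The ratio of replicate 2 over replicate 1 was -0.40 for Mir770 (95% counting interval -0.41 to -0.38) and -0.55 for Mir493 (-0.78 to -0.31, exact binomial adjusted p = 7.0e-06), and these kept their sign with library totals, at -0.17 and -0.32. Mir673 was higher in replicate 2 at 0.21 (0.13 to 0.29, exact binomial adjusted p = 4.2e-07) and at 0.44 with library totals. Mir337 at -0.086 (exact binomial adjusted p = 0.00051), Mir540 at -0.23 (6.1e-12) and Mir665 at -0.18 (0.043) were called higher in replicate 1 by TMM. With library totals Mir337 was called higher in replicate 2 (0.14, exact binomial adjusted p = 2.2e-09), and Mir540 (0.00044, adjusted p = 1.0) and Mir665 (0.048, adjusted p = 0.66) were not called. The 6 calls split 5 to 1 toward replicate 1 by TMM and the 5 calls with library totals split 2 to 3.

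The copies next to Rtl1 were not called. Mir3070a had a log2 ratio of 0.61 (95% counting interval 0.037 to 1.20, exact binomial adjusted p = 0.055), which passed the threshold with library totals (0.84, adjusted p = 0.0059) and in the strand-blind column (0.66, adjusted p = 0.037). Mir3070b had a ratio of 0.14 (-0.29 to 0.57, adjusted p = 0.66). At 40 to 111 counts per library, a difference of the size seen at Mir673 was not detectable for these genes. Marker sums, in CPM on library totals and so without the TMM shift, also differed between the libraries. The oligodendrocyte markers Mir219a-2 and Mir338 summed to 3661 CPM in replicate 1 and 5621 CPM in replicate 2, with 2 of 2 detected and none at 0. The endothelial marker Mir126a was at 5714 and 8835 CPM, Mir375 at 101 and 168 CPM, and the 3 red blood cell markers summed to 51.04 and 75.4 CPM. In the other direction, the neuronal markers summed to 202828 and 189625 CPM, the astrocyte markers Mir23b and Mir29a to 29590 and 25386 CPM, and the muscle markers to 48.7 and 41.8 CPM. Not every gene followed its sum. The neuronal marker Mir128-1 was at 11855 and 14517 CPM and the muscle marker Mir206 at 27.2 and 34.3 CPM. Mir124a-1 and Mir124a-2, at few counts, were also higher in replicate 2. The liver marker Mir122 was at 46.7 and 51.1 CPM. The part of these cell types in the differences between libraries was not tested.

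**Figure D4:**
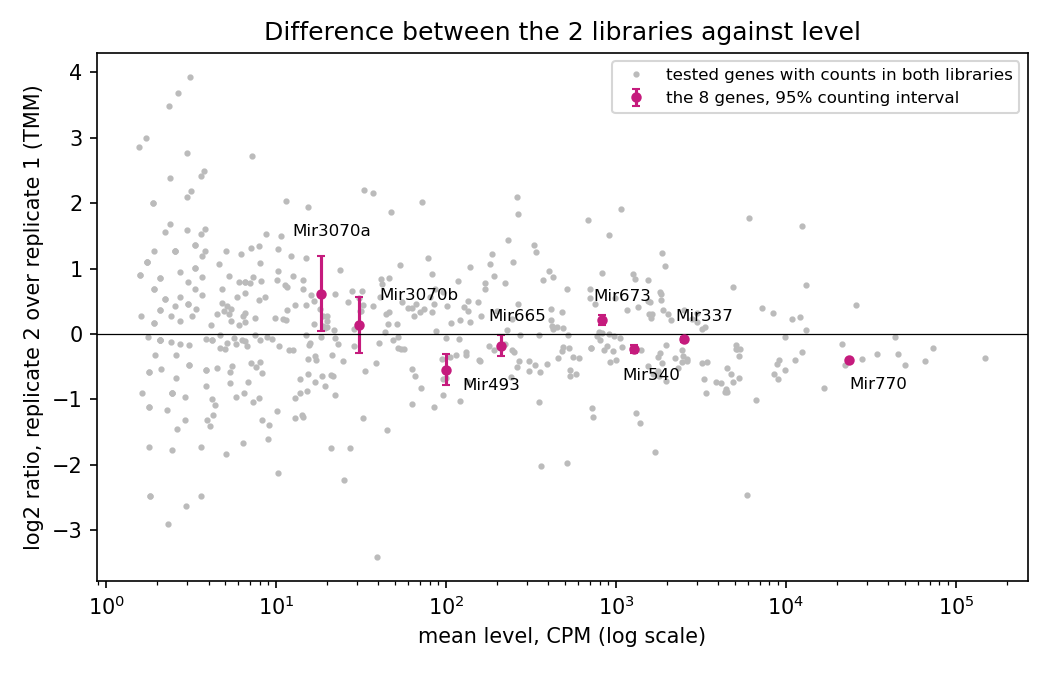
Log2 ratio of replicate 2 over replicate 1 after TMM scaling against mean level in CPM (log scale), for tested genes with counts in both libraries (grey) and for the 8 genes (pink) with 95% counting intervals. The 8 genes stay between -0.55 and 0.61, and the intervals widen toward Mir3070a and Mir3070b.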

How the data were processed

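Deposited values are raw read counts per microRNA gene on mm10 with GENCODE annotation M21, per the file headers in the accompanying notes, made by the authors from 1 FASTQ file per library. For the aligner and the counter, names were not given in the sources used here. Tables carry no column names, and the columns for either strand, the gene's own strand and the opposite strand were recognised from the values. Own-strand counts were used. The 4 read classes (unmapped, several loci, no feature, ambiguous), 64.5% and 65.5% of reads in replicates 1 and 2, were left out of library sizes.

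CPM were computed here. Names and positions came from GENCODE M21, sequences from RefSeq GRCm38.p6 and the GENCODE transcripts, and folding energies from ViennaRNA 2.7.2. The libraries were compared by a two-sided exact binomial test on TMM-scaled library sizes (edgeR 4.0.16, R 4.3.3; Python 3.11.15, numpy 2.4.6, pandas 2.3.3, scipy 1.17.1, matplotlib 3.10.9), with adjusted p under 0.05 as a call. The binomial test, given library totals, was tried on simulated counts with known folds and counting noise only. That simulation covered neither the TMM scaling nor further spread between libraries. Alternatives were the either-strand column, library totals, DESeq2 1.42.0 size factors, other count filters, all reads as denominator, other stretch lengths and leaving out each replicate.

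Named were all members, the 2 nearest genes to each by level, the 2 flanking genes on each side, the highest and lowest genes opposite Rtl1, genes sharing a member's seed and genes annotated over a member. Members and lists were chosen with earlier results of these data known. Alleles of the F1 strain were not examined.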

Additional observations from a re-analysis of the deposited data

Results flagged for a closer look

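Mir3544 drew attention because its opposite-strand column, which no comparison uses, held 7207 counts in replicate 1 and 8464 in replicate 2, above the 3 counts that a count of 0 allows. These equal the own-strand counts of Mir337 in number in each library. Mir3544 had 1 and 0 counts on its own strand.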

How the results depend on the processing

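The 8 genes kept the same order of levels under 3 of 4 alternatives (all reads as denominator and leaving out either replicate), while in the either-strand column Mir337 had 0 counts. Their summed share of 2.86% was 2.75% without replicate 1 and 2.98% without replicate 2, 2.80% in the either-strand column, 1.00% with all reads as denominator and 0.498% without Mir770. Their share of the domain's counts was 15.9% in the either-strand column, where Mir337 and 6 other domain genes have 0 counts, against 16.7%. Between 6 and 8 genes were detected under other count minimums, in the either-strand column and with either replicate left out. Of 23 ratios between libraries recomputed with other scalings or the either-strand column, 16 kept direction and call, 3 changed sign, 2 kept their sign but lost their call (Mir665 with DESeq2 size factors, adjusted p = 0.056 by the exact binomial test, and in the either-strand column, 0.16) and 2 gained one (both Mir3070a). The 3 sign changes came with library totals, where Mir337 was called the other way (0.14, exact binomial adjusted p = 2.2e-09), while Mir540 (0.00044, adjusted p = 1.0) and Mir665 (0.048, 0.66) were not called. Between 5 and 6 members and between 259 and 282 genes were called under the alternatives run. The members' calls by TMM split 5 to 1 toward replicate 1 in the main setting. They split 4 to 1 with no filter on low counts and 4 to 2 with at least 50 counts in total. The set of called members therefore also depended on the count filter. With library totals, 36.2% of called genes were higher in replicate 1, against 54.3% by TMM. Shared stretches of 18 and 22 nt named the same 2 genes. No paired analysis was possible because the labels give 1 group. Counts of 40 to 111 limit Mir3070a and Mir3070b.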

Other observations

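Among the 50 plus-strand microRNA genes of the Dlk1-Dio3 domain detected on their own strand, 7 (14.0%) had 0 counts in the strand-blind column in both libraries, against 23 of 395 detected genes (5.82%) in the whole table. Besides Mir337 they were Mir136 within Rtl1 (246 and 620 own-strand counts) and, beyond it, Mir299a (365 and 842), Mir380 (1700 and 522), Mir376a (5755 and 2789), Mir539 (179 and 359) and Mir409 (6027 and 9636). The 23 include these 7.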
